A study of Mus musculus with 8 samples.

Results

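The genes described here are 43 protein-folding and stress-response genes of the mouse kidney, of 37583 genes counted in each library. They were chosen by symbol: the rows whose Ensembl identifier carried 1 of the 43 names, and each name had exactly 1 row. By role they are 14 cytosolic heat shock genes, 3 mitochondrial chaperones, 15 chaperones and folding factors of the endoplasmic reticulum (ER), 4 sensors and factors of the unfolded protein response, and 7 genes of the integrated stress response. All 43 passed the filter on low counts. The study sequenced RNA of whole kidneys from 8 mouse samples. Its 4 libraries labelled knockout came from b-actinCreERT2+TFAP2Bfl/fl mice, in which both alleles of Tfap2b, the gene of the transcription factor AP-2 beta, are flanked by recombination sites. A beta-actin promoter, active in most cell types, drives a tamoxifen-inducible Cre recombinase in these mice, so that the deletion is not limited to the kidney or to 1 cell type. The other 4 libraries were labelled wildtype and came from control littermates. Whether those controls carry the floxed allele or Cre, and the age, tamoxifen schedule and sex of the animals, were not found in the labels used here.

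Cells answer misfolded proteins through separate arms. In the cytosol, heat shock factor 1 (HSF1), held inactive by chaperones until they are occupied, binds heat shock elements and induces the HSP70, HSP90, DnaJ and small heat shock genes. In the ER lumen, the chaperone BiP, encoded by Hspa5, restrains the sensors IRE1, ATF6 and PERK, encoded by Ern1, Atf6 and Eif2ak3. Once released, IRE1 splices Xbp1 mRNA, ATF6 is cut into a transcription factor, and PERK phosphorylates the initiation factor eIF2 alpha. Phosphorylated eIF2 alpha lowers translation but favours that of Atf4, whose protein induces Ddit3 (CHOP), Trib3, Asns and Chac1. Other kinases feed into this last arm, which is therefore called the integrated stress response. In the kidney, tubule cells that make much secreted or membrane protein, such as the uromodulin-producing thick ascending limb, depend on ER folding capacity. Gene counts do not show splicing, cleavage or phosphorylation, so the state of the sensors themselves was not measured.

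The letters around the starts of these genes were searched for known elements of the arms, as a description only. In RefSeq promoter windows of GRCm38.p6 (from 250 bases before to 50 bases after each start), 34 of the 43 genes had a window. The ER stress element, searched on either strand as CCAAT, any 9 bases and then CCACG, is the site known to be bound by ATF6 together with the factor NF-Y. It was found in 7 of the 12 ER genes with a window and in none of the other members, against 37 of 27025 genes (0.137%) in the whole table. In the following stretches, written on the gene's strand, capitals mark the matches. Where the match lies on the opposite strand, the capitals begin with CGTGG.
Hspa5, chr2:34772005-34772063, plus strand: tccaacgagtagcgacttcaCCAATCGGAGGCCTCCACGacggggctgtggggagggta
Hsp90b1, chr10:86705513-86705676, minus strand: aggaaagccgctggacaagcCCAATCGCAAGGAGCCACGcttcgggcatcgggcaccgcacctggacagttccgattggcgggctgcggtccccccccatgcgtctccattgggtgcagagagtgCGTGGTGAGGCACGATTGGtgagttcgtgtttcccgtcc
Calr, chr8:84847055-84847113, minus strand: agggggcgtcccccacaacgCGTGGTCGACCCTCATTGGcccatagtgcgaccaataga
Canx, chr11:50325780-50325838, minus strand: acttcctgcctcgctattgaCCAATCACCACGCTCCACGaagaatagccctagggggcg
Dnajc3, chr14:118937807-118937865, plus strand: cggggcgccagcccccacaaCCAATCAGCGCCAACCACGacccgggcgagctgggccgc
Pdia6, chr12:17266471-17266529, plus strand: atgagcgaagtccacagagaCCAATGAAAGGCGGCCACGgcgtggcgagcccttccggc
Creld2, chr15:88819500-88819558, plus strand: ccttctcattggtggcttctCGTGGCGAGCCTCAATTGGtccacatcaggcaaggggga
The heat shock element, searched on either strand as GAA, any 2 bases, TTC, any 2 bases and GAA, was found in 3 members, Hsph1, Hspd1 and Hspe1, against 0.662% of all genes. Hspd1 and Hspe1 are read in opposite directions from 1 shared promoter, so both windows hold the same pair of overlapping matches, shown on the Hspe1 strand.
Hspe1, chr1:55088039-55088096, plus strand: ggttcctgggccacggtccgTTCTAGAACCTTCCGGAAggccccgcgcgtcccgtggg
The amino acid response core, TTGC followed by ATCA, was found in Chac1 and Herpud1, against 1.03% of all genes, and the unfolded protein response element, TGAC followed by GTGG, in no member, against 0.714%. A match is a description of the letters, not a site shown to be bound, and a window without a match says nothing of the factor.

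The libraries held 13435113 to 17930347 gene counts. Values are CPM, a gene's counts relative to its library's total after scaling by TMM factors, which lay between 0.999 and 1.06 in the libraries labelled knockout and between 0.951 and 0.973 in those labelled wildtype. All 10 kidney markers looked up (proximal tubule to podocyte and endothelium) were present in every library, with at least 357 counts each. Whole-gene counts of the targeted gene, Tfap2b, were higher in the libraries labelled knockout, at 237 to 266 CPM against 94.3 to 111 CPM. The knockout label is thus not matched by lower whole-gene counts. These counts include exons outside any deleted part and do not check the deletion. Each direction given here follows the labels. The library labelled knockout 4 held 237 CPM summed over 9 adrenal genes, against 6.61 to 9.56 CPM in the other 7. A circadian clock score (10 output genes against 6 activator genes, as a difference of mean log2 CPM) was 0.84, -1.09, -1.58 and -0.54 in knockout 1 to 4 and 0.24 to 2.55 under the wildtype label; the library labelled knockout 1 was the one inside the wildtype range. The labels do not state that each library is a separate animal, so p-values measure only the spread between these 8 samples, which may be technical.

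Few stress genes differed between the groups, and those that did came from different arms. Of the 43, 2 rose in the libraries labelled knockout, the small heat shock gene Hspb8 and the stress-induced mTOR inhibitor gene Ddit4. A further 3 fell, the HSP70-related gene Hspa4l and the ER genes Calr and Dnajc3. That is 11.6% of the members, against 11.9% of the 15228 genes tested (edgeR adjusted p under 0.05); the shares rising were 4.65% and 6.23%, and falling 6.98% and 5.7%. In this fit and at this threshold, the members' share of calls was thus close to that of all genes. Scaled by library totals only, which moves the median log2 fold change over all genes tested from 0.00 to 0.11 and the upward share of calls from 52.2% to 76.5%, 3 members rose and 0 fell, against 10.9% and 3.34% of all genes. DESeq2 called 4 members as rising and 8 as falling, against 7.82% and 8.05% of all genes. At an unadjusted p under 0.05 edgeR had 17 of the 43 (39.5%), against 27.1% of all genes. The median log2 fold change of the members was -0.18, against 0.00 over all genes, and 29 of the 43 had a negative value. The groups did not overlap for 8 members, 2 higher and 6 lower in the libraries labelled knockout. Of all genes tested, the groups did not overlap for 9.42% higher and 9.05% lower.

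**Figure D1:**
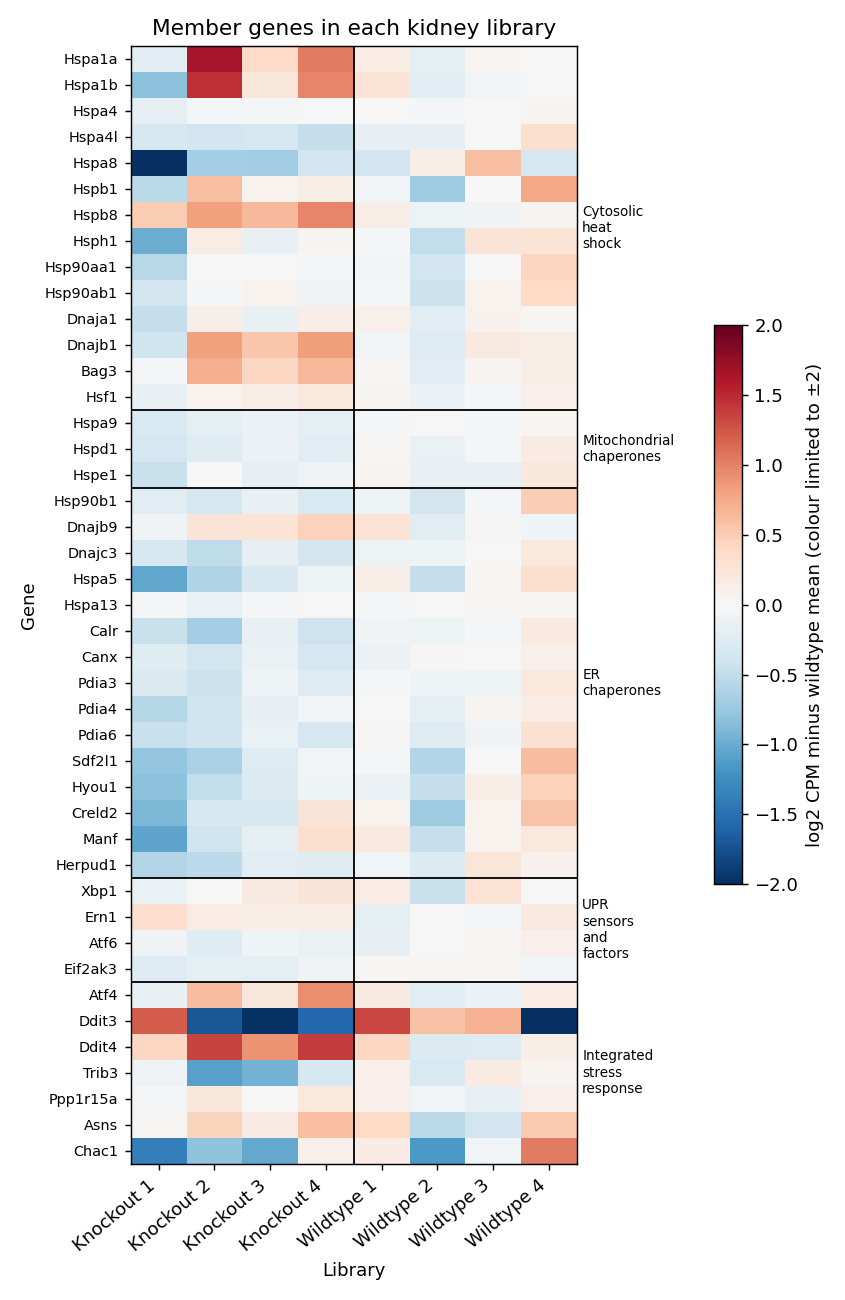
Each row is 1 of the 43 genes and each column 1 library; colour gives log2 CPM minus the mean of the 4 libraries labelled wildtype (red higher, blue lower, limited to 2 either way). Most ER chaperones are blue in the libraries labelled knockout, the first column is bluest among heat shock genes, and Ddit3 switches between dark red and dark blue within both groups.

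Single libraries held the extreme values of many of these genes. The library labelled knockout 1 held the lowest of the 8 values for 22 of the 43 members, among them 9 of 14 cytosolic heat shock genes and 8 of 15 ER genes. The library labelled wildtype 4 held the highest value for 23, among them 12 of 15 ER genes. How often these libraries held the extremes over all genes tested was not counted, so whether the counts are particular to the members is not known. Over genes of all kinds, knockout 1 stood furthest from the rest of its label. Its chi-square per degree of freedom was 19.9 to 22.9, against 9.04 to 18.2 among the rest. Without knockout 1, 6 members rose and 1 fell: Hspa1a, Hspb8, Dnajb1, Bag3, Atf4 and Ddit4 rose and Hspa4l fell, against 6.37% of all genes rising and 6.27% falling in that fit. Hspb8 alone was called without knockout 2, without knockout 4 and without wildtype 3. Calls were fewer over all genes too in these fits, with 3.81%, 4.27% and 4.35% rising and 3.16%, 3.35% and 3.74% falling. Without both knockout 1 and knockout 4, Hspb8, Dnajb1, Bag3 and Ddit4 rose and no member fell, against 3.2% and 2.61% of all genes. With the clock score as a term in the edgeR fit, 0 members were called and 7 had an unadjusted p under 0.05 (19.9% of all genes). In that fit 3.32% of all genes rose and 1.49% fell, 733 in all against 1817. The log2 fold change of Hspb8 was then 0.58, against 0.75, and that of Ddit4 0.48, against 1.05 (adjusted p = 0.11 and 0.439).

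**Figure D2:**
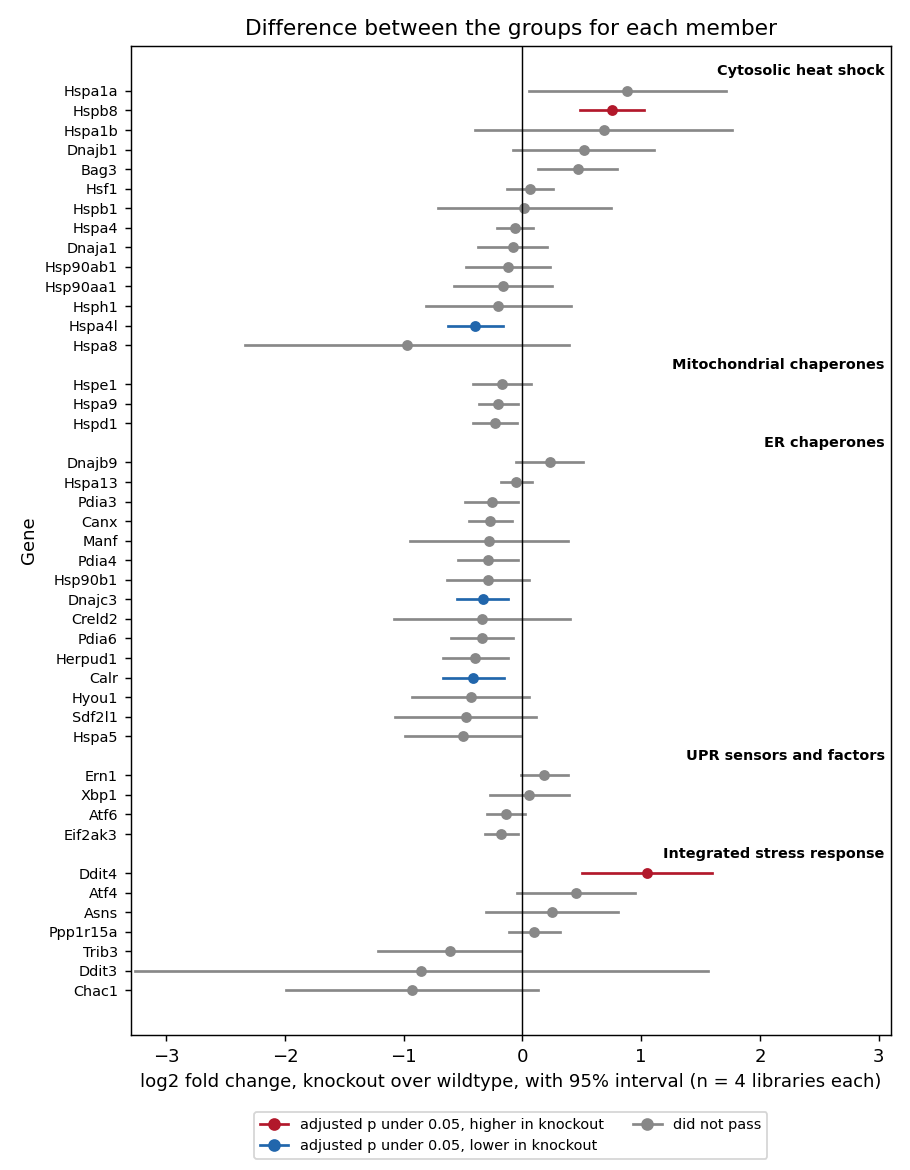
Points are log2 fold changes of the libraries labelled knockout over those labelled wildtype and lines their 95% intervals (edgeR, 4 libraries each), ordered within each class; red and blue mark genes with adjusted p under 0.05. The 15 ER genes lie between -0.50 and 0.23, and the widest interval, that of Ddit3, runs from -3.27 to 1.56.

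Among the 14 cytosolic heat shock genes 1 rose, 1 fell and 12 did not pass, with a median log2 fold change of -0.02 (0.08 with library totals only). Hspb8 encodes a small heat shock protein that works with the co-chaperone BAG3 to send misfolded clients to autophagy. It stood at 14.6, 18.3, 16.2 and 20.4 CPM under the knockout label 1 to 4 and at 11.2, 9.50, 9.72 and 10.7 CPM under the wildtype label 1 to 4. Every library labelled knockout was above every library labelled wildtype. The difference was 1.69-fold, or 0.75 ± 0.12 (SE) on the log2 scale (edgeR adjusted p = 0.00297). It passed without each library in turn (adjusted p = 0.00195 to 0.012).

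The partner of Hspb8, Bag3, a nucleotide exchange factor of HSP70, stood at 50.2, 84.9, 67.9 and 79.9 CPM under the knockout label. It stood at 52.0, 44.2, 53.2 and 55.4 CPM under the wildtype label. Knockout 1 lay among the wildtype values and the other 3 above them (log2 fold change 0.46 ± 0.15, edgeR adjusted p = 0.0741; 0.60 and adjusted p = 0.00403 without knockout 1). Dnajb1, the J-domain protein that loads clients onto inducible HSP70, was lowest of all 8 libraries in knockout 1, and the other 3 libraries labelled knockout were above all those labelled wildtype. It stood at 36.5, 85.2, 70.6 and 85.7 CPM against 46.3, 40.3, 54.8 and 52.8 CPM. Its log2 fold change was 0.52 ± 0.26 (edgeR adjusted p = 0.245), and 0.73 (adjusted p = 0.00323) without knockout 1.

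The inducible HSP70 genes Hspa1a and Hspa1b are near-identical neighbours. Of all stretches of 50 bases in their transcripts, 66.3% and 62.3% also occur in another gene's transcripts, so reads can be split or lost between the copies and each value is uncertain. Hspa1b stood at 18.5, 90.4, 38.3 and 64.0 CPM under the knockout label and at 39.3, 28.2, 31.2 and 32.6 CPM under the wildtype label. Summed over both genes, the libraries labelled knockout held 27.1, 121.9, 51.3 and 84.6 CPM (71.2 ± 41.2, SD, n = 4), and those labelled wildtype 50.3, 37.0, 41.4 and 42.5 CPM (42.8 ± 5.55). The spread among the libraries labelled knockout took in both the lowest and the highest of the 8 values. The log2 fold changes were 0.88 for Hspa1a (95% interval 0.05 to 1.72, edgeR adjusted p = 0.159) and 0.68 for Hspa1b (-0.40 to 1.77, adjusted p = 0.39). Both values leaned on single libraries: Hspa1a was 1.12 without knockout 1 (adjusted p = 0.0287) and 0.49 without knockout 2 (adjusted p = 0.307), and Hspa1b ran from 0.29 without knockout 2 to 0.97 without knockout 1. On the opposite strand, 19.0% of the exon length of Hspa1a is shared with a predicted gene, and as no source used here says that the counting used strand, reads of the pair cannot be told apart.

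Hspa8 encodes HSC70, the constitutive cytosolic HSP70. It stood at 33.3, 191.7, 190.0 and 235.1 CPM under the knockout label and at 234.1, 335.7, 464.4 and 241.1 CPM under the wildtype label. Knockout 1 held 17.4% of the median of the other 3 libraries of its group, from 569 counts against at least 3255. The group difference did not pass (log2 fold change -0.97 ± 0.57, edgeR adjusted p = 0.331), nor without knockout 1 (-0.63, adjusted p = 0.154). Of its stretches of 50 bases, 39.4% also occur in other transcripts.

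Hspa4l, a relative of HSP70 that exchanges its nucleotide, fell. It stood at 67.8, 64.6, 66.8 and 60.7 CPM under the knockout label and at 75.6, 75.5, 84.9 and 105.7 CPM under the wildtype label, with no overlap. The log2 fold change was -0.40 ± 0.10 (edgeR adjusted p = 0.0318). It did not pass without knockout 2, knockout 3, knockout 4 or wildtype 3 (adjusted p = 0.0834, 0.0567, 0.0896 and 0.0674), nor with library totals only (-0.29, adjusted p = 0.079). Its paralogue Hspa4 was among the steadiest members, at 256 to 290 CPM against 281 to 299 CPM (log2 fold change -0.06, 95% interval -0.21 to 0.08; 0.04 with library totals only).

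The HSP90 genes and the remaining co-chaperones showed no difference beyond their spread. Hsp90ab1, the constitutive cytosolic HSP90, stood at 1137, 1436, 1538 and 1403 CPM under the knockout label and at 1431, 1091, 1545 and 1931 CPM under the wildtype label (log2 fold change -0.12, 95% interval -0.47 to 0.23; 0.02 without wildtype 4). Per kilobase of exon it was the most abundant of the 43 in the libraries labelled wildtype, at 500.0 CPM per kilobase, ahead of Calr at 412 and Hspa5 at 274. Hsp90aa1, the inducible form, was at 67.2 CPM in knockout 1 and at 96.4 to 98.9 CPM in the other 3 libraries labelled knockout, against 75.8 to 133 CPM under the wildtype label. Hsph1, a large HSP70-related exchange factor, stood at 120 CPM in knockout 1 and at 217 to 267 CPM in the other 3, against 170 to 290 CPM. With 1 library left out, the log2 fold change ran from -0.28 to -0.003 for Hsp90aa1 and from -0.35 to -0.008 for Hsph1. Dnaja1 had a log2 fold change of -0.08 (0.02 with library totals only), and Hspb1 of 0.02 with a 95% interval of -0.71 to 0.74. Hsf1, the regulator itself, stood at 40.2 to 51.8 CPM against 40.9 to 48.0 CPM (log2 fold change 0.07, 95% interval -0.13 to 0.26).

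**Figure D3:**
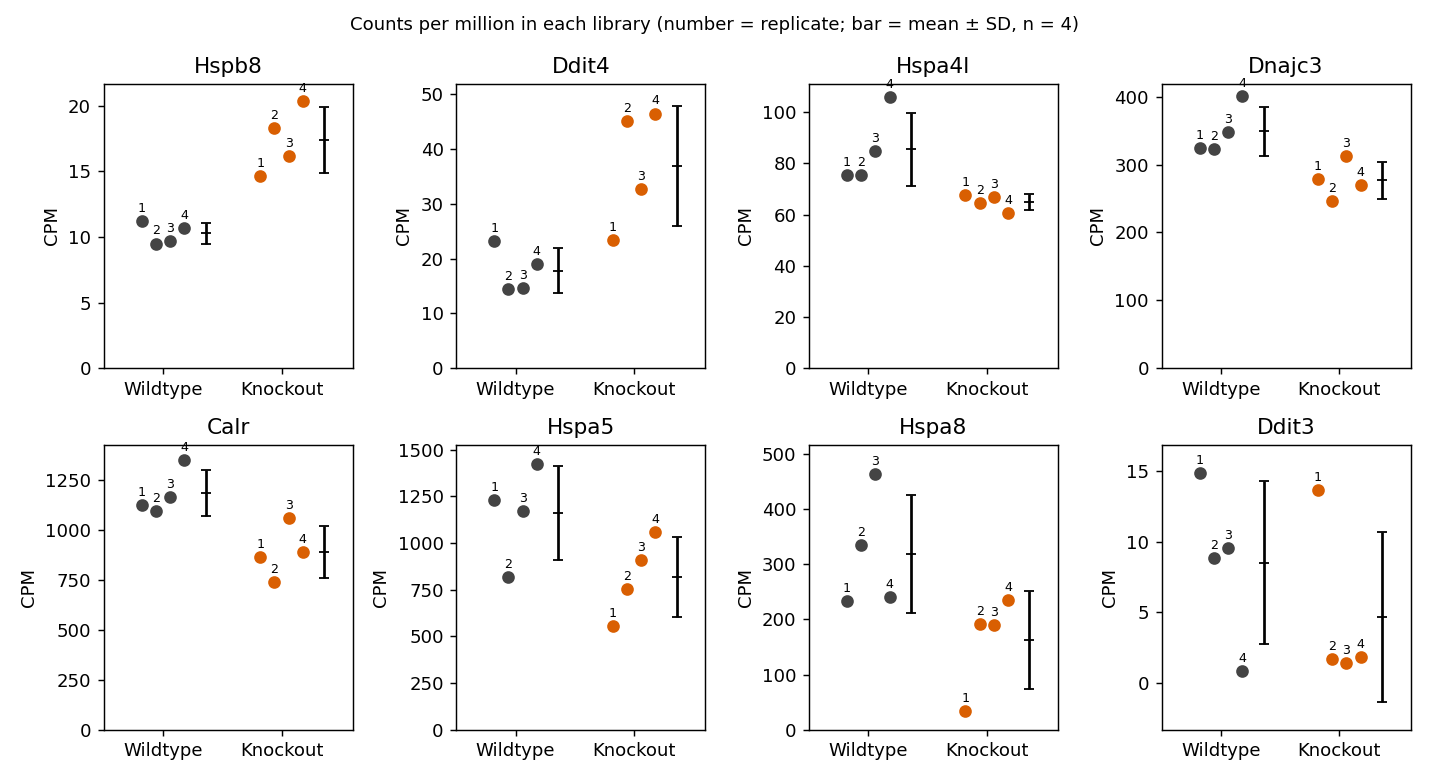
Points are CPM in each library (numbers are the replicate), grey for libraries labelled wildtype and orange for those labelled knockout, with mean ± SD (n = 4) at the side. Hspb8 and Ddit4 are higher and Hspa4l, Dnajc3 and Calr lower with no overlap, Hspa5 and Hspa8 overlap, and Ddit3 has a high and a low set of values in which labels mix.

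None of the 3 mitochondrial chaperones passed in edgeR, with 2 at an unadjusted p under 0.05 (27.1% of all genes), and all had small negative log2 fold changes. Hspa9, or mortalin, pulls proteins through the inner membrane. It stood at 763, 829, 868 and 825 CPM under the knockout label and at 932, 952, 928 and 975 CPM under the wildtype label. The groups did not overlap (log2 fold change -0.20 ± 0.075, 95% interval -0.37 to -0.04, edgeR adjusted p = 0.101). Hspd1, the HSP60 chamber, had -0.23 (edgeR adjusted p = 0.0966) and its lid Hspe1, the HSP10 partner read from the same promoter, -0.17 (adjusted p = 0.353). Both were lowest in knockout 1 and highest in wildtype 4, as was Hspa9. DESeq2 called Hspa9 and Hspd1 (adjusted p = 0.00577 and 0.0419). With library totals only, their log2 fold changes in edgeR were -0.10 and -0.13 (adjusted p = 0.347 and 0.275). In that fit 0 of the 3 chaperones had an unadjusted p under 0.05, against 31.3% of all genes. Reads of Hspd1 and Hspe1 cannot be told apart over the 112 bases where their exons overlap.

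The 15 ER chaperones and folding factors were mostly lower in the libraries labelled knockout: 14 had a negative log2 fold change, 2 fell and 13 did not pass. At an unadjusted p under 0.05 edgeR had 8 (27.1% of all genes), and DESeq2 called 5 as falling (8.05% of all genes). Their median was -0.34, against 0.00 over all genes tested, and -0.23 with 13 negative when scaled by library totals only. Over the settings tried, the median ran from -0.42 to -0.23. Calr encodes calreticulin, a lectin chaperone of new glycoproteins and a calcium buffer. It stood at 866, 741, 1061 and 891 CPM under the knockout label and at 1127, 1097, 1164 and 1353 CPM under the wildtype label. The groups did not overlap, and the fall was -0.41 ± 0.12 on the log2 scale (edgeR adjusted p = 0.0401). Dnajc3, or p58IPK, a co-chaperone of BiP that also restrains PERK, stood at 279, 246, 312 and 270 CPM against 325, 323, 347 and 401 CPM, again with no overlap (-0.34 ± 0.097, adjusted p = 0.045). Both calls were narrow. Of the 8 fits that left out 1 library, the one without knockout 3 kept them (adjusted p = 0.0156 and 0.0298). Adjusted p was 0.0572 to 0.103 for Calr and 0.0558 to 0.125 for Dnajc3 without any other library, and 0.0614 and 0.0937 with library totals only.

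Canx, Herpud1 and Pdia6 lay just past the threshold. Calnexin, the membrane-bound partner of calreticulin encoded by Canx, stood at 692, 636, 747 and 651 CPM under the knockout label and at 754, 830, 820 and 881 CPM under the wildtype label. Its groups did not overlap (log2 fold change -0.27 ± 0.084, edgeR adjusted p = 0.0601). Herpud1, part of the machinery that sends misfolded ER proteins to the proteasome, stood at 209, 218, 272 and 265 CPM against 304, 259, 373 and 333 CPM (-0.40 ± 0.12, adjusted p = 0.0618). Pdia6, a disulfide isomerase, had -0.34 (adjusted p = 0.0869). All 3 passed with DESeq2 (adjusted p = 0.0072, 0.02 and 0.0437). With library totals only, none of them passed in edgeR (log2 fold changes -0.17, -0.29 and -0.24, adjusted p = 0.162, 0.107 and 0.158).

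Hspa5, the BiP gene and a standard readout of ER stress, was not higher in the libraries labelled knockout. It stood at 556, 753, 908 and 1059 CPM there and at 1231, 818, 1173 and 1422 CPM under the wildtype label. The ranges overlapped through wildtype 2 (log2 fold change -0.50, 95% interval -0.99 to -0.02, edgeR adjusted p = 0.169). Hsp90b1, the ER-resident HSP90, stood at 730 to 839 CPM against 721 to 1309 CPM (-0.29, adjusted p = 0.26), its highest value again in wildtype 4. Other chaperones induced with BiP had wide intervals around similar values. Hyou1, an ER exchange factor, had -0.44 (-0.93 to 0.06), Sdf2l1 -0.48 (-1.07 to 0.12), Creld2 -0.34 (-1.08 to 0.40) and the secreted stress factor Manf -0.28 (-0.95 to 0.38). Without wildtype 4, Hsp90b1 was -0.10, Hyou1 -0.26, Sdf2l1 -0.23 and Creld2 -0.12, and without knockout 1 Manf was -0.09. The disulfide isomerases Pdia3 and Pdia4 had -0.26 and -0.29 (adjusted p = 0.118 and 0.133). Hspa13 had -0.05 (0.05 with library totals only). Dnajb9, or ERdj4, which returns IRE1 to its BiP-bound state, was the exception in sign at 0.23 (-0.05 to 0.51).

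The 7 ER genes whose promoters are printed above had log2 fold changes of -0.50 to -0.27, with a median of -0.34 and 2 calls, Calr and Dnajc3. The 5 with a window and no match, Dnajb9, Pdia3, Pdia4, Sdf2l1 and Herpud1, had values of -0.48 to 0.23, with a median of -0.29 and 0 calls. The 3 without a window, Hspa13, Hyou1 and Manf, had values of -0.44 to -0.05, with a median of -0.28 and 0 calls. The ranges overlapped, and a part of the element in these values was not tested.

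None of the 4 sensors and factors passed in edgeR or DESeq2. Each had 1 at an unadjusted p under 0.05, Eif2ak3, against 27.1% of all genes in edgeR and 26.6% in DESeq2. Xbp1, counted over both of its splice forms, stood at 186, 205, 231 and 245 CPM under the knockout label and at 226, 149, 249 and 206 CPM under the wildtype label (log2 fold change 0.06, 95% interval -0.27 to 0.39). Atf6 stood at 73.8 to 83.5 CPM against 78.6 to 94.6 CPM (-0.14, -0.30 to 0.02), and Ern1 at 45.8 to 53.0 CPM against 37.1 to 48.1 CPM (0.18, -0.01 to 0.38). Eif2ak3, the PERK gene, stood at 51.4, 53.9, 53.9 and 58.3 CPM under the knockout label, just below the 62.3, 62.2, 62.3 and 59.2 CPM of those labelled wildtype (-0.18 ± 0.063, edgeR adjusted p = 0.0905). A predicted gene on the opposite strand covers 8.05% of its exon length.

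Of the 7 integrated stress genes 1 rose, Ddit4, none fell and 6 did not pass; their median log2 fold change was 0.10. Ddit4, or REDD1, which lowers mTOR complex 1 signalling and also answers hypoxia and glucocorticoids, stood at 23.4, 45.0, 32.7 and 46.4 CPM under the knockout label. It stood at 23.2, 14.5, 14.7 and 18.9 CPM under the wildtype label. Knockout 1 and wildtype 1 nearly met, and the groups were otherwise apart. The difference was 2.07-fold (log2 fold change 1.05 ± 0.24, edgeR adjusted p = 0.0252). It did not pass without knockout 2, knockout 4, wildtype 2, wildtype 3 or wildtype 4 (adjusted p = 0.0705, 0.06, 0.0689, 0.0729 and 0.0541), nor when genes of low counts were kept in the fit (0.0756).

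The transcription factor of this arm, Atf4, stood at 103, 175, 133 and 216 CPM under the knockout label and at 129, 97.2, 105 and 126 CPM under the wildtype label. Again knockout 1 lay inside the wildtype range and the other 3 above it (log2 fold change 0.45 ± 0.22, edgeR adjusted p = 0.224; 0.61 and adjusted p = 0.0466 without knockout 1, 0.26 and adjusted p = 0.433 without knockout 4). Its textbook targets had both signs. Asns, asparagine synthetase, had a log2 fold change of 0.25 (95% interval -0.30 to 0.81), Trib3, a pseudokinase, -0.61 (-1.21 to -0.01), and Chac1, which degrades glutathione, -0.93 (-1.99 to 0.13). None of these passed (edgeR adjusted p = 0.562, 0.176 and 0.241), and Trib3 and Chac1 rested on 18 to 46 and 18 to 106 counts a library. With 1 library left out, Asns ran from 0.09 to 0.44 and Chac1 from -1.32 to -0.47. Ppp1r15a, or GADD34, which restores translation by reversing eIF2 alpha phosphorylation, stood at 20.4 to 24.7 CPM against 19.0 to 22.6 CPM (0.10, -0.11 to 0.32).

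Ddit3, which encodes the death-associated factor CHOP, varied most within the groups. It stood at 13.7, 1.70, 1.40 and 1.88 CPM under the knockout label 1 to 4 and at 14.9, 8.84, 9.55 and 0.849 CPM under the wildtype label 1 to 4. The 4 high libraries, with 121 to 234 counts, were knockout 1 and wildtype 1 to 3, and the 4 low ones, with 14 to 29 counts, were knockout 2 to 4 and wildtype 4. The difference between the groups had a 95% interval of -3.27 to 1.56 (log2 fold change -0.85, edgeR adjusted p = 0.644), and it passed in none of the 8 fits that left out 1 library. Without knockout 1 it was -2.36 (adjusted p = 0.144). On the opposite strand, exons of Mars cover 3.97% of its exon length.

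**Figure D4:**
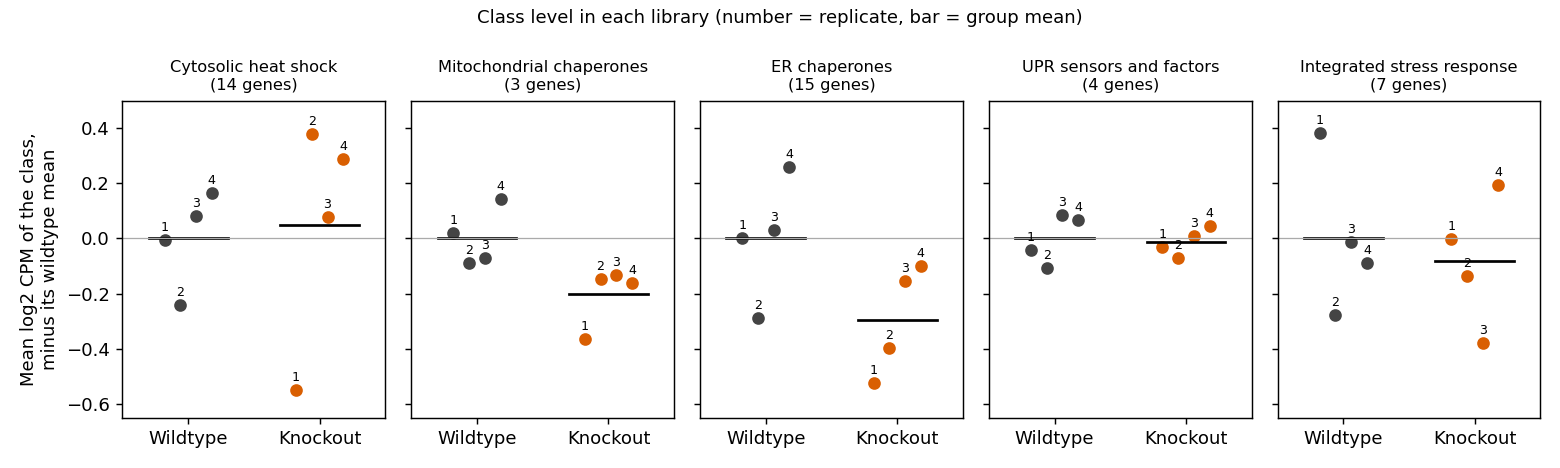
Each point is the mean log2 CPM of the genes of 1 class in 1 library, minus that class's mean over the libraries labelled wildtype; bars are group means and numbers the replicate. The mitochondrial class is lower in each library labelled knockout, at -0.36 to -0.13 against -0.09 to 0.14, the ER class overlaps through wildtype 2, and knockout 1 is lowest in the cytosolic class at -0.55.

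Seen by class, the arms did not move alike in single libraries. The mean log2 CPM of the cytosolic class, relative to its wildtype mean, was -0.55, 0.38, 0.08 and 0.29 in knockout 1 to 4. That of the ER class was -0.52, -0.40, -0.16 and -0.10 in the same libraries, and ranged from -0.29 in wildtype 2 to 0.26 in wildtype 4. By this mean, which weights each gene alike, knockout 2 was the highest of the 8 libraries for cytosolic heat shock genes and, after knockout 1, the lowest for ER chaperones. By summed CPM, which the most abundant genes dominate, knockout 2 (2828 CPM) lay below wildtype 3 and wildtype 4 (3098 and 3337 CPM) for the cytosolic class and was lowest for the ER class, at 4763 CPM against 4781 CPM in knockout 1. Immediate early genes, which also answer tissue handling, ranked the libraries labelled knockout in the same order as the cytosolic class, at 0.48, 0.97, 0.64 and 0.77. The order differed in wildtype 1 to 4, at -0.07, 0.05, -0.11 and 0.14, against -0.004, -0.24, 0.08 and 0.17 for the cytosolic class. Knockout 1, lowest of the 8 for the cytosolic class, lay above every library labelled wildtype for immediate early genes. Of the 17 immediate early genes tested, 8 rose and 1 fell. Their part in the heat shock values was not tested.

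Markers of other cell types also moved with the groups. Of 10 macrophage markers, 8 rose and none fell, and their summed level was 643 to 1144 CPM under the knockout label against 348 to 526 CPM. Knockout 1 held the most. Plasma cells, which carry much ER, gave 7 tested markers. None was called by edgeR, with 2 at an unadjusted p under 0.05 (27.1% of all genes). DESeq2 called 1, as rising (7.82% of all genes). Of these markers, 6 had a positive log2 fold change and 1 a negative value (-0.64). Summed with Tnfrsf17, which was too low to be tested, they stood at 197 to 785 CPM against 96.0 to 294 CPM, again highest in knockout 1, and none was at 0 counts in any library. Of 10 kidney markers 7 fell and 2 rose, with sums of 11155 to 13805 CPM against 19914 to 21167 CPM. Of 13 tubular injury genes 9 rose. In whole tissue, fewer cells of a type and less RNA per cell cannot be told apart, and the part of cell content in the stress gene values was not tested.

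The other genes of these pathways were followed in 4 lists. Of 33 further cytosolic chaperones and co-chaperones, including the chaperonin ring subunits, edgeR called none, with 5 at an unadjusted p under 0.05 (27.1% of all genes), and DESeq2 called 1. Their median log2 fold change was -0.05. The 4 with the smallest adjusted p were St13 (-0.23), Dnaja2 (-0.18), Dnajb4 (0.37) and Hsf2 (0.22). Dnajb4 stood at 44.6 CPM in knockout 1 and at 63.7 to 76.6 CPM in the other 3, against 46.0 to 55.4 CPM under the wildtype label, so that knockout 1 was lowest and the other 3 highest, as for Dnajb1. Of 12 mitochondrial quality control genes 1 fell, the protease gene Lonp1, at 195 to 217 CPM against 239 to 247 CPM (log2 fold change -0.26 ± 0.064, adjusted p = 0.0243). It did not pass without knockout 2, knockout 4, wildtype 1, wildtype 3 or wildtype 4 (adjusted p = 0.0519 to 0.0713), nor with library totals only (0.104) or the clock term (0.124). Trap1, Dnaja3 and Grpel1 had -0.29, -0.22 and -0.23.

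Of 38 other ER folding, translocation and degradation genes 1 fell and none rose, with a median of -0.08. Wfs1, which encodes wolframin, a membrane protein of the ER, stood at 33.0, 29.2, 32.9 and 32.9 CPM under the knockout label and at 38.6, 41.1, 45.4 and 41.2 CPM under the wildtype label. The groups were apart (-0.38 ± 0.077, edgeR adjusted p = 0.00948), also without each library in turn, but it did not pass with the clock term (-0.25, adjusted p = 0.244). Mbtps1, the protease that cuts ATF6, had -0.21, Uggt1, which re-glucosylates misfolded glycoproteins, -0.24, and Tmbim6 -0.23 (adjusted p = 0.0891, 0.101 and 0.104).

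In the integrated stress list outside the members, 33 genes were tested, of which 5 rose, 2 fell and 26 did not pass, a share of 21.2% against 11.9% of all genes. As the list was chosen with earlier results of these data known, no conclusion is drawn from the difference in shares. Gdf15, a secreted stress cytokine, went from 4.59, 3.21, 3.32 and 4.67 CPM under the wildtype label to 8.89, 29.4, 22.0 and 25.6 CPM in those labelled knockout, lowest in knockout 1 (log2 fold change 2.44 ± 0.36, edgeR adjusted p = 0.00397). Atf3, a factor induced by ATF4 and also an immediate early gene, stood at 3.51 to 7.58 CPM against 1.36 to 1.92 CPM (1.85 ± 0.26, adjusted p = 0.00131). Stc2, a secreted glycoprotein, stood at 12.6 to 14.5 CPM against 6.17 to 9.50 CPM (0.84 ± 0.14, adjusted p = 0.00321). Slc3a2, the heavy chain of the large amino acid transporters, went the other way, at 217 to 252 CPM against 284 to 320 CPM (-0.37 ± 0.076, adjusted p = 0.00956). These 4 passed without each library in turn, and none passed with the clock term. There Gdf15 was 1.45 (adjusted p = 0.112), Atf3 1.44 (0.0779), Stc2 0.61 (0.118) and Slc3a2 -0.38 (0.112). Aldh18a1 and Cebpb also rose (0.59 and 0.76) and Vldlr fell (-0.39). Aldh18a1 failed in 7 and Cebpb in 7 of the 8 fits that left out 1 library, and Vldlr failed without knockout 2 or knockout 4 (adjusted p = 0.0566 and 0.0554). With the clock term Aldh18a1 passed (0.98, adjusted p = 0.0258), and Cebpb and Vldlr did not (0.18 and -0.21, adjusted p = 0.772 and 0.372).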

How the data were processed

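RNA of whole kidneys was sequenced as 8 libraries, 4 of each label. The deposited files hold whole-number read counts per Ensembl gene, which the authors made with STAR and HTSeq on mm9, per the submitters' processing notes; those notes also name edgeR. For versions, annotation and strand setting: not given in the sources used here. HTSeq's summary lines were left out; between 63.8% and 69.1% of the counted reads were assigned to a gene. Counts were treated as taking no account of strand, and because PCR copies were not marked, depth sets counting error only.

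Symbols were attached to 32860 of 37583 identifiers from a gene name table. Genes passing filterByExpr were fitted with edgeR 4.0.16 (R 4.3.3; TMM, quasi-likelihood F-test, robust) on the 4 against 4 libraries, and p-values were adjusted by Benjamini and Hochberg over all 15228 genes tested, with a threshold of 0.05. SE and 95% intervals are those of the log2 fold change. DESeq2 1.42.0, limma 3.58.1 (voom), other scalings, filters, a replicate block, left-out libraries and a clock score term were alternatives. The fit was tested on simulated data. Levels per kilobase used GENCODE M21 exon lengths. Promoter windows came from RefSeq (GRCm38.p6), which is not the build of the counts and was used for sequence only.

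Named were all 43 members and, of each other list, the called genes and those with the 4 smallest adjusted p. The members and lists were chosen with earlier results of these data known. A planned ranking of genes by likeness to the members is not reported. Libraries of the same number did not deviate together (correlations of -0.215, -0.21, -0.0527 and 0.157), so numbers were not treated as pairs. No 2 libraries of the same label were copies (chi-square per degree of freedom of at least 9.04). Pairs across the labels were not compared in this way.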

Additional observations from a re-analysis of the deposited data

Results flagged for a closer look

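The groups of 4 libraries examined numbered 96 (each member and each class, by label). In 5, 1 library stood apart by a gap that, divided by the group's range, passed Dixon's 95% limit for 4 samples. Chance alone gives about 1 group in 20, and 5 of 96 is close to that share. The classes are built from the same members, so the groups are not independent. In the libraries labelled knockout, knockout 1 stood apart in 4 of the 5 groups flagged. It was lowest for Hsp90aa1 (0.921 of the range), at 67.2 CPM against 96.4 to 98.9 CPM. It was highest for Ern1 (0.921), at 53.0 CPM against 45.8 to 46.4 CPM, and for Ddit3 (0.961), at 13.7 CPM against 1.40 to 1.88 CPM. The mean level of the mitochondrial chaperones was lowest in it (0.881), at -0.36 against -0.16 to -0.13 on the log2 scale. In the libraries labelled wildtype, wildtype 4 was lowest for Eif2ak3 (0.986), at 59.2 CPM against 62.2 to 62.3 CPM. Knockout 1 was also the library of its label with the highest macrophage sum (1144 CPM), plasma cell sum (785 CPM) and clock score (0.84); their part in these values was not tested.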

How the results depend on the processing

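Of 1116 log2 fold changes recomputed for members and named pathway genes, 981 kept their sign and their side of the threshold, 78 lost a call, 38 gained one and 19 changed sign. Calls shifted most. Genes differing between the groups (1817) became 1094 with the replicate block, 912 without knockout 1 and 4, 733 with the clock term and 2850 at a threshold of 0.10. Members rising (2) became 4 with DESeq2, 1 with no filter, 1 with the block, 4 without knockout 1 and 4, and 0 with the clock term. Members falling (3) became 0 with library totals only, 8 with DESeq2, 1 with the block, 0 without knockout 1 and 4, 0 with the clock term and 8 at 0.10. Cytosolic genes rising (1) became 2, 3, 3, 0 and 2 with totals only, DESeq2, without knockout 1 and 4, the clock term and 0.10; cytosolic genes falling (1) became 0 with totals, the block, the clock term and without both libraries. Mitochondrial chaperones falling (0) became 2 with DESeq2 and 1 at 0.10. ER genes falling (2) became 0, 5, 1, 0, 0 and 5 with totals only, DESeq2, the block, without knockout 1 and 4, the clock term and 0.10. Sensors falling (0) became 1 at 0.10. Integrated stress genes rising (1) became 0 with no filter, the block or the clock term. Other pathway genes rising (5) became 8 with totals, 3 with the block and 1 with the clock term; falling (4), they became 2 with totals, 10 with DESeq2, 2 with the clock term and 9 at 0.10. In the pairing by replicate number (block), Hspb8 rose and Herpud1 fell (adjusted p = 0.0181 and 0.0368). The cause of these shifts was not tested.

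Leaving out 1 library in turn gave 1076 to 1940 genes, 1 to 6 members rising and 0 to 3 falling. It gave 1 to 4 cytosolic genes rising and 0 to 1 falling, 0 to 3 ER genes falling and 0 to 2 integrated stress genes rising. Other pathway genes numbered 3 to 7 rising and 2 to 8 falling. None of the genes that changed sign had passed. With totals only, Hspa4 became 0.041, Dnaja1 0.023 and Hspa13 0.054. With the clock term, Hspa1b became -0.22, Hspb1 -0.28, Hsf1 -0.078, Dnajb9 -0.051, Xbp1 -0.0046, Ppp1r15a -0.044, Asns -0.097 and Dnajb4 -0.018. With 1 library left out, Dnaja1 ran from -0.16 to 0.029, Hspb1 from -0.19 to 0.34, Xbp1 from -0.072 to 0.16 and Hsp90ab1 from -0.25 to 0.023. Depth limits Trib3, Chac1 and the low Ddit3 libraries most, where counts fell to 18, 18 and 14; 3 counts in a library are 0.168 to 0.226 CPM. The clock score differs between the labels, so the term and the label share much of their variation.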
